A study of Mus musculus with 18 samples.

Results

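The libraries described here are the 4 input and 4 pulldown libraries of normal mouse dorsal root ganglia, 8 of the 18 libraries of a study of the mRNAs translated in pain-sensing neurons. They were chosen by their labels, biosamples 1 to 4 of each fraction, and each pulldown was set against the input taken from the same extract, which gave 4 pairs. All animals were Rosa26fsTRAP mice crossed to Nav1.8cre on a C57BL/6J background, male and female littermates of 8 to 12 weeks, so that inputs and pulldowns alike carried both alleles. Cre recombinase driven from the promoter of Scn10a, which encodes Nav1.8, a sodium channel, switches on ribosomal protein L10a fused to EGFP, and anti-GFP beads then bring down the tagged ribosomes. The other 10 libraries of the study came from mice given paclitaxel. Vehicle-dosed animals are mentioned in the treatment notes, but whether they are the normal group is not stated, nor is the number of animals in a biosample or the sex of each library.

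Dorsal root ganglia hold the cell bodies of sensory neurons, wrapped by satellite glia, with their axons in Schwann cells and connective tissue around them. Nav1.8 carries the action potential current of most small-diameter nociceptors, and Cre from its promoter marks a neuron whose lineage has used the gene, which takes in C-fibre touch neurons and some larger neurons as well. In translating ribosome affinity purification (TRAP), an mRNA is recovered when a tagged ribosome sits on it. A pulldown is meant to report the mRNAs on ribosomes of the tagged neurons, and the input the RNA of all cells of the extract. In such bulk material, fewer cells of a type and less RNA per cell cannot be told apart. Here both fractions came from a supernatant cleared of nuclei and of mitochondria, and reads were taken from the 3′ ends of polyadenylated RNA.

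Inputs held 4266011 to 14478024 reads over the listed genes and pulldowns 5972328 to 26825867, with biosample 4 the shallowest in both fractions. A value of 1 CPM (reads of a gene per 1000000 reads of its library) was reached by 13152 to 13660 genes in the inputs, and by 9715, 10147, 12076 and 12439 genes in pulldowns 1 to 4. Inputs correlated with each other at r = 0.897 to 0.959 over the log2 values of the 13063 genes tested, and pulldowns at 0.821 to 0.865. Pulldown 3 correlated with inputs 2 and 3 at 0.898 and 0.896, and pulldown 4 with its own input at 0.893, each closer than any pair of pulldowns. The pulldowns thus stood further from each other than the inputs did.

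Of 22021 listed genes, 13063 reached 1 CPM in at least 4 of the 8 libraries and were tested with limma on log2(CPM + 1), with the biosample as a block and Benjamini-Hochberg adjustment at 0.05. In the pulldown 650 genes were higher (4.98%) and 3089 lower (23.6%), and the median log2 change was -0.66. The median was -0.86, -0.64, -0.45 and -0.36 in pairs 1 to 4. Fewer genes took up more of the pulldown reads: the 10 most abundant genes held 4.86% to 7.36% of all reads in inputs, against 7.94% to 11.4% in pulldowns. The balance of higher and lower calls depended on the scaling. With biosamples 3 and 4 alone, whose pulldowns held the most genes, 487 were higher and 1734 lower, a setting chosen after the data were seen. With median-ratio scaling 1412 were higher (10.8%) and 1219 lower (9.33%), with quantile normalization 1187 (9.09%) and 1233 (9.44%), and with edgeR's quasi-likelihood test (TMM) on the recovered whole reads 1116 (8.54%) and 591 (4.52%). The median change under these 3 scalings was -0.22, -0.01 and -0.36. Below, counts under the 3 other scalings are given in this order, "rose by" and "fell by" give differences on the log2(CPM + 1) scale, and each is to be read against the median of -0.66. Counts of calls in a list are to be read against the shares of all genes under the same scaling. No overlap between the 4 inputs and the 4 pulldowns was found for 2858 genes (21.9%), 566 of them higher (4.33%) and 2292 lower (17.5%).

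**Figure D1:**
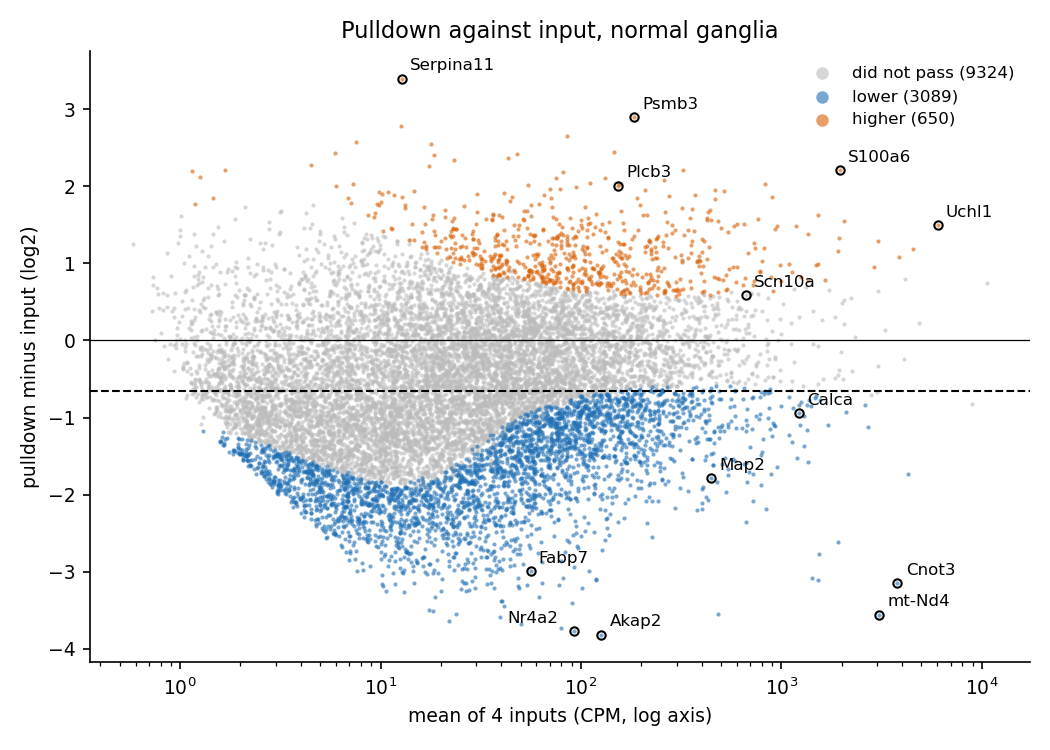
Mean input level (horizontal axis, CPM on a log axis) against the pulldown minus input change (vertical axis, log2) for the 13063 genes tested. Orange points are the 650 genes that were higher, blue points the 3089 that were lower, grey points the rest, the dashed line marks the median change of -0.66, and the labelled genes are named in the text.

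Scn10a (chromosome 9, 119608456 to 119719322, minus strand, GRCm38), the gene whose promoter drives Cre, stood at 443, 1013, 659.8 and 548 CPM in inputs 1 to 4 and at 977, 1077, 1387 and 567 CPM in pulldowns 1 to 4. It was higher in the pulldown in 4 of 4 pairs, clearly so in biosamples 1 and 3 and barely in 2 and 4, and the fractions overlapped. The log2 change of 0.59 (SE 0.247) did not pass (limma adjusted p = 0.0712), and an exact sign-flip test over the 4 pairs gave p = 0.13, the smallest that 4 pairs can give. Under quantile normalization 2 of the 4 pairs were higher. Rpl10a, the gene of the ribosomal protein that is tagged, was at 7.51, 18.98, 16.6 and 2.81 CPM in the inputs and 9.28, 1.19, 14.1 and 8.71 CPM in the pulldowns, with no common direction (log2 change -0.45, adjusted p = 0.667; exact p = 0.875). The sign of its change turned with quantile normalization (0.54). How reads that Rpl10a shares with its pseudogenes or with the transgene were counted is not stated.

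Of 20 nociceptor-lineage genes tested, 17 lay above the median change of all genes and 4 rose and 1 fell, with a list median of 0.37, and the 3 other scalings called 11, 3 and 7 higher and 0, 1 and 0 lower. Their summed level was 7539.6, 9524, 7544 and 9799 CPM in the inputs and 13799, 11130.0, 12510.0 and 16439 CPM in the pulldowns, higher in each pair. This held with Prph included. In biosample 2 the gain of Prph, given below, was larger than that of the sum, so the rest of the list together was lower there. Plcb3, a phospholipase C of C-fibre nociceptors, was at 162, 142, 145 and 163 CPM in the inputs and 763, 508, 579.8 and 647 CPM in the pulldowns. Every pulldown lay above every input, and the change of 2.01 (SE 0.221, limma adjusted p = 2.27e-07) passed in each setting that was run. Prph, the peripherin filament of small sensory neurons, rose from 1668, 1681, 1593 and 2798 CPM to 5973, 3885, 2925 and 7460.2 CPM, by 1.33 (adjusted p = 0.00161, limma). Scn9a, the sodium channel Nav1.7, rose by 0.78 (mean 729.7 to 1249.7 CPM), and Rgs3, a regulator of G protein signalling, by 0.88. Kcnip4, a potassium channel partner, fell by 0.96. With median-ratio scaling Kcnip4 (adjusted p = 0.357) did not pass, with quantile normalization Scn9a (0.0554) and Kcnip4 (0.173), with edgeR Kcnip4 (0.405), with the GC and length trend removed Kcnip4 (0.11), with no filter on low values Kcnip4 (0.119), with a filter of 3 reads in all libraries Kcnip4 (0.053), and with no intensity trend Scn9a, Rgs3 and Kcnip4. Without biosample 2 Kcnip4 (adjusted p = 0.307) did not pass, without biosample 3 Scn9a (0.112), Rgs3 (0.0609) and Kcnip4 (0.0854), with biosamples 3 and 4 alone Prph, Scn9a and Kcnip4, with the biosample as a random effect Kcnip4 (0.0608), and without the biosample block Scn9a and Kcnip4.

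Among 18 pan-neuronal genes 3 rose (16.7%, against 4.98% of all genes) and 3 fell (16.7%, against 23.6%). The 3 other scalings gave 10, 2 and 6 rises and 2, 3 and 2 falls. Avil, advillin of sensory neurons, rose from 22.1, 51.4, 51.1 and 27.4 to 58.8, 78.9, 118 and 143 CPM (log2 change 1.38). Uchl1, a neuronal deubiquitinase, had the highest mean of all genes in the pulldowns, at 29525, 23675, 9169 and 12371 CPM, against 6246, 7544, 5625 and 4669.5 CPM in the inputs. It rose by 1.50 (limma adjusted p = 0.00804). Against these, 2 of the 3 falls came without overlap between the fractions. Map2, the dendrite and cell body microtubule protein, was at 408, 262, 525 and 589 CPM in the inputs and 68.6, 103, 179.6 and 179.8 CPM in the pulldowns (log2 change -1.79, limma adjusted p = 4.09e-06), and Elavl4, the neuronal RNA-binding protein HuD, fell by 1.32. Both falls passed under the 3 other scalings as well. With quantile normalization Uchl1 (adjusted p = 0.361) did not pass, and with no intensity trend Avil and Elavl4. Without biosample 1 Uchl1 (adjusted p = 0.0617) did not pass, without biosample 2 Uchl1 (0.0604), without biosample 3 Uchl1 (0.0554), and with biosamples 3 and 4 alone Uchl1.

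**Figure D2:**
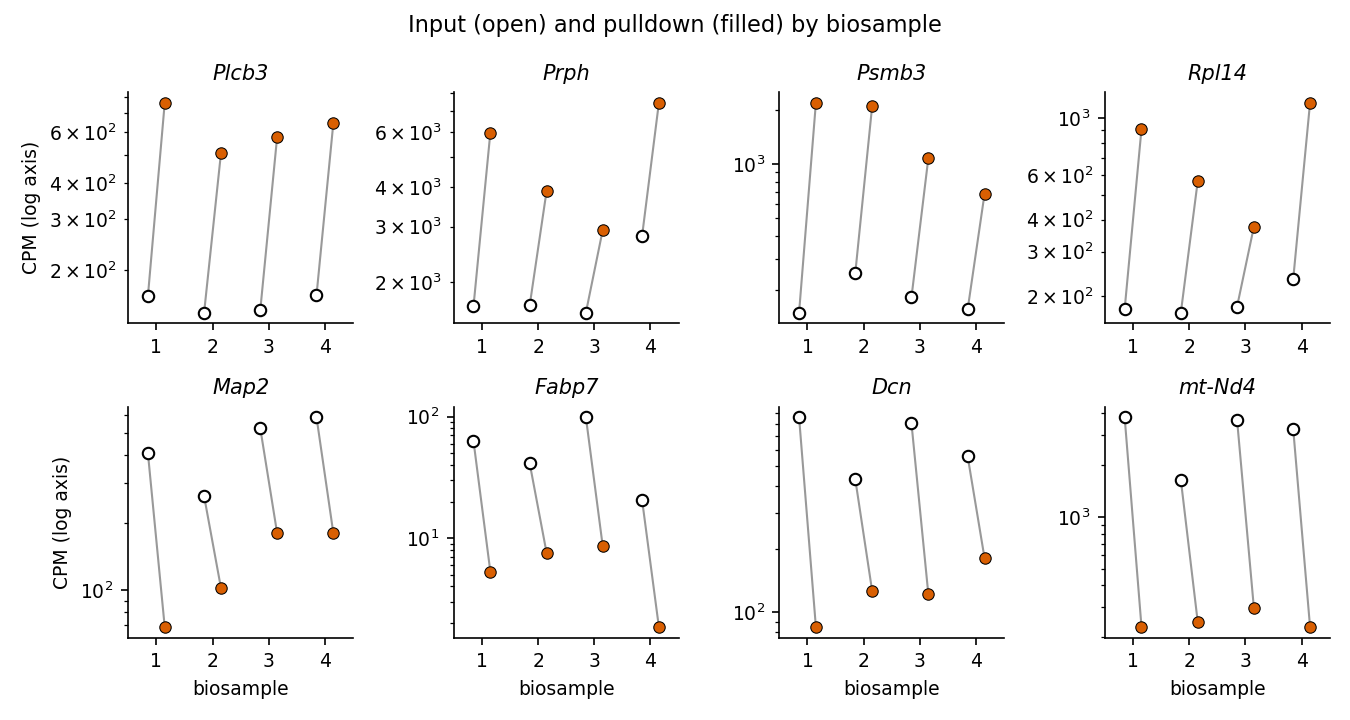
CPM (log axis) of 8 genes in each biosample, with inputs as open circles, pulldowns as filled circles and a line joining the pair. Plcb3, Prph, Psmb3 and Rpl14 are higher in every pulldown, and Map2, Fabp7, Dcn and mt-Nd4 are lower in every one.

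Of 19 large-fibre and proprioceptor genes, expressed mostly by neurons without Nav1.8, 0 rose and 11 fell (57.9%, median -1.31). Falls of all genes came to 23.6%. Under the 3 other scalings 4, 10 and 3 of the list fell. Ntrk2, the receptor TrkB of touch neurons, went from 65.7, 48.7, 123 and 72.7 CPM in the inputs to 14.9, 10.96, 48.1 and 39.01 CPM in the pulldowns. Kcna1, a juxtaparanodal potassium channel, fell by 1.51, and Etv1, a transcription factor of proprioceptors, fell by 2.32. Nefh, the heavy neurofilament of large neurons, did not pass (443 to 435 CPM). Of 14 peptidergic nociceptor genes 0 rose and 3 fell (21.4%, close to the 23.6% of all genes). Their median of -0.62 lay near the -0.66 of all genes. The 3 other scalings called 1, 0 and 0 higher and 0, 1 and 0 lower. Calca, the gene of the peptide CGRP, was at 926, 1836, 1392 and 752 CPM in the inputs and 523, 717, 950.1 and 368 CPM in the pulldowns (log2 change -0.94, SE 0.237, limma adjusted p = 0.00431). It was lower in 4 of 4 pairs, with overlap between the fractions. Trpv1, the capsaicin receptor, stood at 33.7, 44.3, 45.9 and 21.3 CPM in the inputs and 13.9, 13.4, 16.6 and 17.6 CPM in the pulldowns, without overlap, and its change of -1.14 did not pass (adjusted p = 0.0626). With median-ratio scaling Calca (adjusted p = 0.262) did not pass, with edgeR Calca (0.268), and with no intensity trend Etv1 and Calca. With biosamples 3 and 4 alone Etv1 and Calca did not pass, and without the biosample block Calca.

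Of 12 genes of nonpeptidergic, Mrgprd-type nociceptors 0 rose and 0 fell by limma (median 0.11), and the 3 other scalings called 4, 0 and 2 higher and 0, 0 and 0 lower. Mrgprd itself, a receptor of these cells, was at 30.8, 118, 52.2 and 11.9 CPM in the inputs and 57.4, 62.1, 56.5 and 12.9 CPM in the pulldowns, spread widely between biosamples in both. The 14 itch genes held 1 rise and 1 fall (1, 1 and 1 rises and 0, 0 and 0 falls under the 3 other scalings). Cysltr2, a leukotriene receptor of itch neurons, rose in every pair, from 5.64, 12.0, 4.63 and 7.97 CPM to 30.2, 75.8, 18.1 and 120.4 CPM, a change of 2.58 that passed under the 3 other scalings. Gfra1, a GDNF co-receptor, fell by 1.05. Of 9 genes of C low-threshold mechanoreceptors 1 rose and 1 fell (2, 1 and 2 rises and 0, 1 and 0 falls under the 3 other scalings). Piezo2, the channel of touch transduction, rose by 0.85 (mean 531 to 1037 CPM), and P2ry1, an ADP receptor, fell by 1.43. With median-ratio scaling Gfra1 (adjusted p = 0.203) and P2ry1 (0.0996) did not pass, with quantile normalization Gfra1 (0.061), with edgeR Gfra1 (0.225) and P2ry1 (0.123), and with no intensity trend Gfra1 and Piezo2. Without biosample 1 Gfra1 (adjusted p = 0.0578) did not pass, without biosample 3 P2ry1 (0.0671), without biosample 4 Piezo2 (0.0569), with biosamples 3 and 4 alone Gfra1, and without the biosample block Piezo2.

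Ion channel genes that passed were more often lower than higher in the values as deposited, as were all genes tested (23.6% lower and 4.98% higher), and the balance depended on the scaling in each group below. The share that fell was 31.7% of the potassium, 30.8% of the sodium and 20.0% of the calcium channel genes, 21.4% of the TRP and related channels and 17.9% of the transmitter receptors. Of 41 potassium channel genes 1 rose and 13 fell (median -0.84), and under the 3 other scalings 4, 3 and 4 rose and 6, 5 and 3 fell, so that edgeR turned the balance. Kcnb2, a delayed rectifier, fell by 2.05 (mean 172 to 59.3 CPM) and Kcnq3, an M-current subunit, had a change of -2.10. Kcnd1, an A-type channel, rose by 0.86. Of 13 sodium channel genes, 2 rose and 4 fell (4, 1 and 4 rises and 1, 3 and 0 falls under the 3 other scalings, which turns the balance in the first and the last). Scn2b, an auxiliary beta subunit, was at 51.97, 88.2, 72.7 and 75.2 CPM in the inputs and 224, 189.6, 287 and 259 CPM in the pulldowns, higher by 1.73 without overlap (adjusted p = 1.12e-05, limma). Scn3a, a channel of developing and injured neurons, fell by 2.87, to values of 0.10, 0.67, 1.65 and 2.85 CPM. With edgeR Scn3a (adjusted p = 0.0525) did not pass, and with no intensity trend Kcnb2 and Kcnd1. Without biosample 2 Kcnd1 (adjusted p = 0.0501) did not pass, and with biosamples 3 and 4 alone Kcnd1.

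Among 15 calcium channel genes 0 rose and 3 fell, while the 3 other scalings called 2, 1 and 2 higher and 1, 1 and 1 lower, which turns the balance in the first and the last. Cacnb4, a channel beta subunit, went from 425, 402, 501 and 286 CPM to 63.5, 86.2, 180.4 and 55.1 CPM, the lowest input above the highest pulldown, and its change of -2.19 passed under each scaling. In the group of 28 TRP, P2X, ASIC, HCN and Piezo channels 1 rose and 6 fell, and this balance turned with median-ratio scaling and edgeR (6, 3 and 4 higher and 2, 3 and 1 lower under the 3 other scalings). P2rx7, an ATP receptor of glia and macrophages, fell by 2.29, to 0.10, 0.56, 1.76 and 0 CPM. Of 28 transmitter receptor genes 1 rose and 5 fell (1, 3 and 1 rises and 2, 2 and 2 falls under the 3 other scalings, which turns the balance with quantile normalization). The metabotropic GABA receptor subunit Gabbr1 rose from 259, 459, 385 and 319.5 to 831, 1004, 888 and 609 CPM, while the ionotropic subunit Gabrg1 dropped from 117, 51.9, 61.8 and 86.97 to 1.55, 3.50, 2.94 and 23.9 CPM. With quantile normalization P2rx7 (adjusted p = 0.262) did not pass, with edgeR P2rx7 (0.116), and with no intensity trend Gabbr1.

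Secretory peptide genes went in both directions. Of 23 neuropeptide and granule genes 4 rose (17.4%, against 4.98% of all genes) and 4 fell (17.4%, against 23.6%). The 3 other scalings gave 7, 3 and 6 rises and 2, 2 and 1 falls. Nmb, the itch and pain peptide neuromedin B, was at 219.8, 997, 343 and 303 CPM in the inputs and 2052, 1920.5, 1446 and 901 CPM in the pulldowns, up by 1.95 (limma adjusted p = 7.47e-06). The granule proteins Cpe, a peptide-processing carboxypeptidase, and Scg3, a granin, rose by 1.16 and 0.81. Bdnf, a neurotrophin stored in granules, fell by 1.50 (mean 148 to 52.6 CPM), and Penk, the enkephalin precursor, fell by 2.31, to 0.05, 0.26, 2.22 and 0.33 CPM. Tac1, the substance P precursor, did not pass (677, 525, 616 and 752 CPM in the inputs, 659.8, 926, 639 and 459 CPM in the pulldowns). With quantile normalization Penk (adjusted p = 0.141) did not pass, with edgeR Penk (0.108), and with no intensity trend Cpe and Scg3. Without biosample 3 Scg3 (adjusted p = 0.0572) did not pass, without biosample 4 Scg3 (0.0741), and with biosamples 3 and 4 alone Cpe and Penk.

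Of 18 neurotrophic receptor genes 0 rose (against 4.98% of all genes) and 7 fell (38.9%, against 23.6%). Their median of -0.59 lay near the -0.66 of all genes. Median-ratio scaling turned this balance (3, 0 and 2 higher and 2, 3 and 2 lower under the 3 other scalings). Sorcs1, a sortilin-family receptor, fell by 3.23, whereas Ret, the GDNF receptor kinase, did not pass (415 to 428 CPM). Of 22 sensory transcription factor genes 1 rose (4.55%) and 8 fell (36.4%), with a median of -0.73. The 3 other scalings gave 3, 2 and 2 rises and 5, 5 and 2 falls. Tlx3, a factor of nociceptor and itch lineages, rose from 219.7, 184, 174 and 306 to 664, 669.5, 470.4 and 362 CPM. Maf, a factor of touch neurons, fell from 215, 103, 193 and 171 to 60.8, 36.4, 49.9 and 76.8 CPM. Neither showed an overlap between the fractions. With the GC and length trend removed Tlx3 (adjusted p = 0.0992) did not pass, and with no intensity trend Tlx3.

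More axonal motor genes rose than fell. Of 29 motor genes 9 rose (31.0%) and 1 fell (3.45%), against 4.98% and 23.6% of all genes. The 3 other scalings called 13, 8 and 11 higher and 1, 3 and 1 lower. Kif5a, the neuronal heavy chain of kinesin-1, was at 278, 433, 416 and 361 CPM in the inputs and 1479, 1128, 1151 and 1775 CPM in the pulldowns, higher by 1.89 (SE 0.241, limma adjusted p = 2.42e-06). Its sister Kif5b, which is expressed in most cell types, did not pass (1928 to 1399.5 CPM). The kinesin-2 genes Kif3c and Kif3a rose by 2.41 and 1.09, and Dync1i2, an intermediate chain of the dynein motor that moves the other way, by 1.21. Dctn6, a dynactin subunit, fell by 2.22. Of 36 cytoskeletal genes 6 rose (16.7%) and 4 fell (11.1%). The 3 other scalings gave 18, 7 and 13 rises and 1, 3 and 1 falls. Map1a, a microtubule protein of mature axons and dendrites, rose by 1.26 and Nefm, the medium neurofilament, by 0.99, while Dpysl2, the axon growth protein CRMP2, fell by 1.12. Of 32 synaptic vesicle and SNARE genes 4 rose (12.5%, against 4.98% of all genes) and 8 fell, a share close to the 23.6% of all genes. Their median of -0.17 lay above the -0.66 of all genes. The balance of rises and falls turned under the 3 other scalings (8, 6 and 7 rises and 1, 5 and 1 falls). The fusion clamps Cplx1 and Cplx2 rose by 1.24 and 1.67, and Rab3a, a vesicle GTPase, fell by 1.37. With median-ratio scaling Dpysl2 (adjusted p = 0.0695) did not pass, with edgeR Dpysl2 (0.0969), and with no intensity trend Kif3a, Dync1i2, Dctn6, Map1a, Nefm, Dpysl2, Cplx1 and Rab3a. Without biosample 2 Dctn6 (adjusted p = 0.0583) did not pass, with biosamples 3 and 4 alone Dctn6 and Nefm, and without the biosample block Dctn6, Nefm and Dpysl2.

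Genes of glia and connective tissue were lower in the pulldown but still detected there. Of 19 Schwann cell genes 16 fell (84.2%, median -1.73), of 16 satellite glia genes 11 (68.8%), and of 15 fibroblast and perineurium genes 11 (73.3%), against 23.6% of all genes. In these 3 lists 0 rose under any of the 4 scalings, where 4.98% of all genes rose as deposited. Under the 3 other scalings 10, 11 and 9, 9, 10 and 6 and 9, 8 and 7 fell, against 9.33%, 9.44% and 4.52% of all genes. The summed Schwann cell level was 11659, 6497, 6739.8 and 7686 CPM in the inputs and 3121, 3416, 2113 and 2850.1 CPM in the pulldowns. For satellite glia it was 5076, 3025, 5346 and 3372 CPM in the inputs and 1668, 2456, 2854 and 2303 CPM in the pulldowns, and for fibroblasts and perineurium 5432, 2875, 4689 and 4943 and 1096, 1271, 1388 and 1959 CPM. The sums were lower in every pulldown than in its own input. Fabp7, a fatty acid binding protein of satellite glia, went from 63.1, 41.3, 99.1 and 20.6 to 5.29, 7.60, 8.58 and 1.84 CPM (log2 change -2.99, limma adjusted p = 0.000196). Dcn, the matrix protein decorin, went from 859.6, 434, 804 and 558 to 84.6, 127, 122 and 182 CPM. Pi16, listed with the fibroblast genes, did not pass (81.6 to 89.9 CPM).

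Falls of the remaining cell types are to be read against 23.6% of all genes, and against 9.33%, 9.44% and 4.52% under the 3 other scalings. Of 17 macrophage genes 6 fell, of 6 genes of other leukocytes 4, of 14 endothelial genes 8, of 10 pericyte and smooth muscle genes 6, of 9 red cell genes 3 and of 10 skeletal muscle genes 5. Under the 3 other scalings the falls were 2, 2 and 1, 3, 2 and 2, 3, 3 and 0, 1, 2 and 1, 1, 2 and 1 and 0, 2 and 0. Under each of these scalings the macrophage, pericyte and skeletal muscle lists held at most 2 falls. Ptprc, the leukocyte antigen CD45, was at 7.17, 4.00, 8.08 and 9.85 CPM in the inputs and at 0.10, 0.48, 0.05 and 0.50 CPM in the pulldowns, the latter near the 3-read floor of 0.112 to 0.502 CPM. Cdh5, the cadherin of endothelial junctions, fell by 2.42. Egfl7, an endothelial secreted factor, was the exception with a rise of 0.69; another gene overlaps it on the same strand. Skeletal muscle genes summed to 545, 1917, 859 and 290.4 CPM in the inputs and 277, 2115, 392 and 206 CPM in the pulldowns, and biosample 2 was the highest in both. With quantile normalization Ptprc (adjusted p = 0.141) did not pass, with edgeR Ptprc (0.0587) and Cdh5 (0.0758), with the GC and length trend removed Egfl7 (0.422), with robust estimation Egfl7 (0.0512), with no filter on low values Egfl7 (0.0585), and with no intensity trend Cdh5 and Egfl7. Without biosample 1 Egfl7 (adjusted p = 0.118) did not pass, without biosample 2 Egfl7 (0.0997), without biosample 3 Egfl7 (0.0878), with biosamples 3 and 4 alone Egfl7, and without the biosample block Egfl7.

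**Figure D3:**
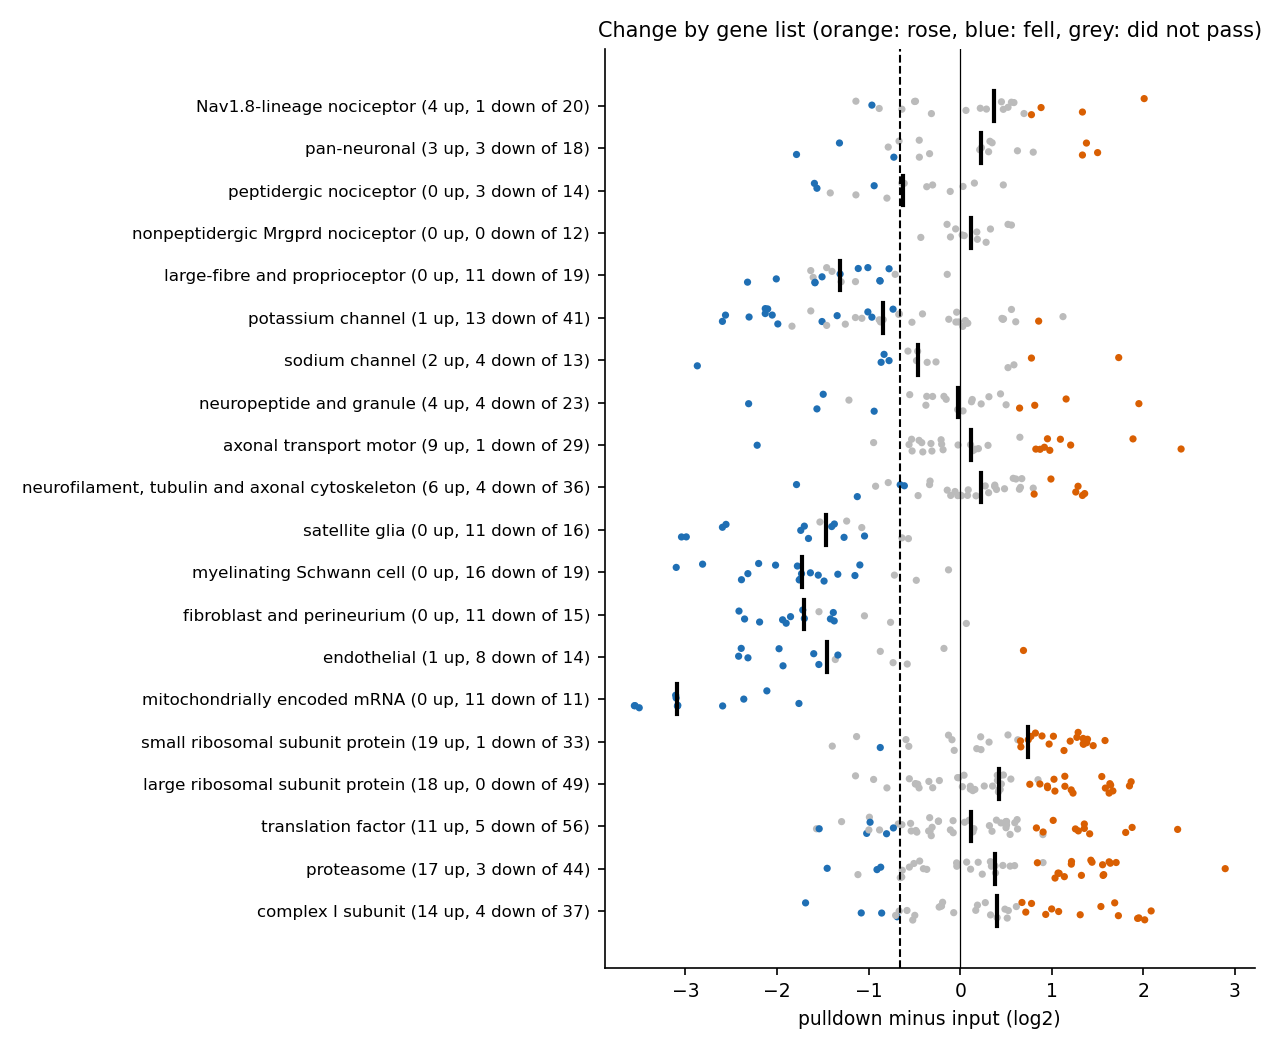
Pulldown minus input change (log2, horizontal axis) of every tested gene in 20 lists (points), with the list's median as a black bar and, beside its name, the genes that rose and fell of those tested. The dashed line is the median of all 13063 genes, -0.66.

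Mitochondrially encoded mRNAs, which are translated inside the organelle, fell in 11 of 11 tested, against 23.6% of all genes. Their median was -3.09, and 9, 10 and 10 fell under the 3 other scalings. mt-Nd4, a complex I subunit, was at 3801, 1641, 3680.1 and 3234 CPM in the inputs and at 229, 246, 295 and 228 CPM in the pulldowns. The pulldown values lay close together, and the change of -3.56 had the lowest p of all genes tested (limma adjusted p = 2.73e-11). As a set they took 0.382% to 1.09% of all reads in the inputs, against 0.0563% to 0.0861% in the pulldowns. Of 17 immediate early genes, whose transcripts are short-lived, 1 rose (5.88%, against 4.98% of all genes) and 9 fell (52.9%, against 23.6%). The 3 other scalings gave 1, 2 and 1 rises and 3, 4 and 3 falls. Nr4a2, an orphan nuclear receptor, was at 105, 61.6, 75.01 and 128 CPM in the inputs and 0.85, 4.40, 21.4 and 7.37 CPM in the pulldowns, and Egr1 fell by 2.16. Of 34 genes of chromatin and splicing proteins 4 rose (11.8%) and 15 fell (44.1%), both above the shares of all genes. Their median of -0.59 lay near the -0.66 of all genes. The 3 other scalings gave 7, 4 and 5 rises and 4, 10 and 3 falls, so the balance turned with median-ratio scaling and edgeR. The splicing factors Srsf7 and Sf3b1 fell (changes of -1.58 and -1.36), and Chd3, a nucleosome remodeller, rose by 1.24.

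Small ribosomal subunit protein genes had the highest share of rises of all lists, 57.6%. Ribosomal protein genes are the best known mRNAs with a 5′ terminal oligopyrimidine (TOP) tract, a run of C and T at the transcript start through which mTORC1 controls their loading on ribosomes. Of 33 small subunit genes 19 rose and 1 fell (median 0.74), and of 49 large subunit genes 18 rose and 0 fell (median 0.42). The 3 other scalings called 23, 18 and 22 and 28, 19 and 28 higher. Summed, the large subunit genes made up 8223, 14812, 9189 and 9266 CPM in the inputs and 25341, 24226, 17135 and 22910.0 CPM in the pulldowns, with input 2 well above the other inputs. RefSeq start sites (GRCm38.p6) were matched for 61 of the 82 genes. The windows below show 15 bases before and 15 bases after the start, 5′ to 3′, on the strand of the gene, with the longest run of C and T that comes within 5 bases of the start in capitals. They are those of the 5 largest and the 3 smallest changes among the matched genes.
Rpl24: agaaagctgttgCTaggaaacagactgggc
Rpl14: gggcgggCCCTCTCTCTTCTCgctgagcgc
Rpl41: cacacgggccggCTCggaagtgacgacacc
Rpl27: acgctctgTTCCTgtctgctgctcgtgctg
Rpl36al: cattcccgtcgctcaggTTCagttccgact
Rpl39: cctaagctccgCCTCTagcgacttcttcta
Rps27: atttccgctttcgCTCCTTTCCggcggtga
Rps2: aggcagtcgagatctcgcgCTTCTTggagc
The windows lie, for Rpl24 at chr16:55966260-55966289 on the plus strand, Rpl14 at chr9:120571502-120571531 on the plus strand, Rpl41 at chr10:128549154-128549183 on the minus strand, Rpl27 at chr11:101442230-101442259 on the plus strand. Those of the others lie, for Rpl36al at chr12:69184053-69184082 on the minus strand, Rpl39 at chrX:37085208-37085237 on the minus strand, Rps27 at chr3:90213634-90213663 on the minus strand, Rps2 at chr17:24720048-24720077 on the plus strand.
Of these, Rpl14 and Rps27 hold a run of at least 8 bases, and they lie at opposite ends of the range of change. Such a run was found in 22 of the 61 ribosomal protein genes (36.1%) and in 969 of 9985 tested genes with a matched start (9.7%). It was found in 13 of the 27 ribosomal protein genes that rose (48.1%) and in 9 of the 34 that did not (26.5%). Rpl14 was at 178, 172, 182 and 234 CPM in the inputs and 909, 566, 375 and 1154 CPM in the pulldowns, a change of 1.85 (limma adjusted p = 2.67e-06), and Rpl24 rose by 1.87 (mean 902 to 3273 CPM). Rps14 went from 476, 851, 788 and 933 to 2307, 2198, 2329.7 and 2030.4 CPM. Rps29 fell by 0.87. Rps2 and Rps27 did not pass (log2 change -1.40 and -1.13, adjusted p = 0.149 and 0.143). Many of these genes have near-identical pseudogenes, and the handling of shared reads is not stated, so low values such as the 18.0 to 6.90 CPM of Rps2 are uncertain. With median-ratio scaling Rps29 (adjusted p = 0.334) did not pass, with edgeR Rps29 (0.361), with no filter on low values Rps29 (0.0715), and with no intensity trend Rps29. Without biosample 2 Rps29 (adjusted p = 0.144) did not pass, with biosamples 3 and 4 alone Rps29, with the biosample as a random effect Rps29 (0.0866), and without the biosample block Rps29.

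Translation factor genes went in both directions, with rises above and falls below the shares of all genes. Of 56 tested 11 rose (19.6%, against 4.98% of all genes) and 5 fell (8.93%, against 23.6%). The 3 other scalings gave 22, 17 and 21 rises and 1, 5 and 1 falls. Eif3m, a subunit of the scaffold that binds the small ribosomal subunit, went from 37.4, 56.5, 37.7 and 42.4 to 367, 281, 159 and 161 CPM, and Eif3d rose by 1.41. Eef1b2, the exchange factor of elongation factor 1, rose by 1.88, while the factor itself, Eef1a1, fell by 0.98 (mean 745 to 384 CPM). The scaffold genes Eif4g2 and Eif4g3 fell (changes of -1.02 and -1.54). The cap-binding protein Eif4e and its inhibitor Eif4ebp1 did not pass (115 to 88.3 CPM and 4.51 to 3.26 CPM). With median-ratio scaling Eef1a1 (adjusted p = 0.178) and Eif4g2 (0.143) did not pass, with edgeR Eef1a1 (0.209) and Eif4g2 (0.164), and with no intensity trend Eef1a1, Eif4g2 and Eif4g3. With biosamples 3 and 4 alone Eef1a1, Eif4g2 and Eif4g3 did not pass, with the biosample as a random effect Eef1a1 (adjusted p = 0.0611), and without the biosample block Eef1a1.

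Of 36 genes of mTORC1 and the amino acid sensing Rag and Ragulator complexes, 3 rose and 9 fell (median -0.55), a share of falls close to the 23.6% of all genes, and the 3 other scalings turned this to 4, 3 and 3 higher and 0, 1 and 0 lower. Rraga, the GTPase RagA of the series title, was at 92.4, 375, 153 and 52.04 CPM in the inputs and 94.3, 98.04, 144 and 20.9 CPM in the pulldowns, a change of -0.81 (limma adjusted p = 0.0375). Its paralog Rragb rose, from 7.65, 3.61, 6.84 and 11.02 to 63.5, 21.8, 15.2 and 43.5 CPM. Mtor, the kinase, did not pass (14.6, 20.6, 18.6 and 3.75 CPM and 5.64, 0.56, 8.58 and 4.86 CPM, adjusted p = 0.135). Akt1s1, the mTORC1 inhibitor PRAS40, rose by 1.35, the Ragulator subunit Lamtor4 by 1.31, and its partner Lamtor5 fell by 1.60. With median-ratio scaling Rraga (adjusted p = 0.495) and Lamtor5 (0.0628) did not pass, with quantile normalization Rraga (0.145), with edgeR Rraga (0.511) and Lamtor5 (0.106), with the GC and length trend removed Rraga (0.161), with no filter on low values Rraga (0.129), with a filter of 5 CPM Rraga (0.0507), with a filter of 3 reads in all libraries Rraga (0.0556), and with no intensity trend Rraga, Lamtor4 and Lamtor5. Without biosample 2 Rraga (adjusted p = 0.309) and Lamtor5 (0.0636) did not pass, without biosample 4 Rraga (0.11), with biosamples 3 and 4 alone Rraga, Rragb and Lamtor5, with the biosample as a random effect Rraga (0.216), and without the biosample block Rraga.

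Genes of the proteasome, which degrades ubiquitin-tagged proteins, were often higher. Of 44 proteasome genes 17 rose (38.6%) and 3 fell (6.82%), against 4.98% and 23.6% of all genes, with a list median of 0.38. The 3 other scalings called 25, 18 and 23 higher and 0, 1 and 0 lower. Psmb3 (chromosome 11, 97703399 to 97713500), a beta subunit of the core particle, went from 150.5, 248, 183 and 157 CPM to 2188, 2081, 1074 and 681 CPM, the second largest rise of all named genes (2.89, SE 0.249, limma adjusted p = 2.65e-09). Psmc1 and Psmd4 of the regulatory particle rose by 1.57 and 1.55, and Psma2, an alpha subunit, fell by 0.91. Of 29 cytosolic chaperone genes 6 rose (20.7%) and 4 fell (13.8%). The 3 other scalings gave 12, 6 and 12 rises and 1, 3 and 1 falls. The chaperonin subunits Cct8 and Cct7, which fold actin and tubulin, rose by 2.04 and 1.51, and Cryab, a small heat shock protein of glia and muscle, fell by 2.11. With median-ratio scaling Psma2 (adjusted p = 0.312) did not pass, with edgeR Psma2 (0.34), with the GC and length trend removed Psma2 (0.0845), with no filter on low values Psma2 (0.0742), and with no intensity trend Psma2 and Cryab. Without biosample 2 Psma2 (adjusted p = 0.135) did not pass, with biosamples 3 and 4 alone Psma2, with the biosample as a random effect Psma2 (0.169), and without the biosample block Psma2.

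Among nuclear genes of the mitochondrion, those of complex I rose more often than they fell. Of 37 genes listed for complex I 14 rose (37.8%) and 4 fell (10.8%), against 4.98% and 23.6% of all genes. The 3 other scalings gave 18, 14 and 17 rises and 1, 1 and 1 falls. Ndufs5 was at 246, 357, 237 and 202 CPM in the inputs and 1782, 1679, 631 and 726 CPM in the pulldowns, higher by 2.08. Ndufa4, counted here by its symbol, fell by 1.69 (mean 249 to 84.1 CPM). Whether it belongs with complex I or with complex IV was not examined. Complexes II to V gave 6 rises (15.0%) and 9 falls (22.5%) of 40. The balance turned with median-ratio scaling and edgeR (11, 5 and 10 rises and 2, 5 and 2 falls). Within ATP synthase, Atp5e and Atp5k rose by 1.54 and 1.51 and the catalytic subunit Atp5b fell by 1.14. Mitochondrial ribosomal protein genes held 10 rises (13.0%) and 10 falls (13.0%) of 77. The 3 other scalings gave 18, 15 and 16 rises and 3, 5 and 3 falls. Gpx4, the selenoenzyme that reduces lipid peroxides, rose from 497, 383, 256 and 741 to 2066, 1829, 939 and 1662 CPM, while Cat, catalase of the peroxisome, fell by 1.62. With median-ratio scaling Atp5b (adjusted p = 0.0748) did not pass, with edgeR Atp5b (0.108), and with no intensity trend Ndufa4, Atp5e, Atp5b and Cat. Without the biosample block Cat did not pass.

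**Figure D4:**
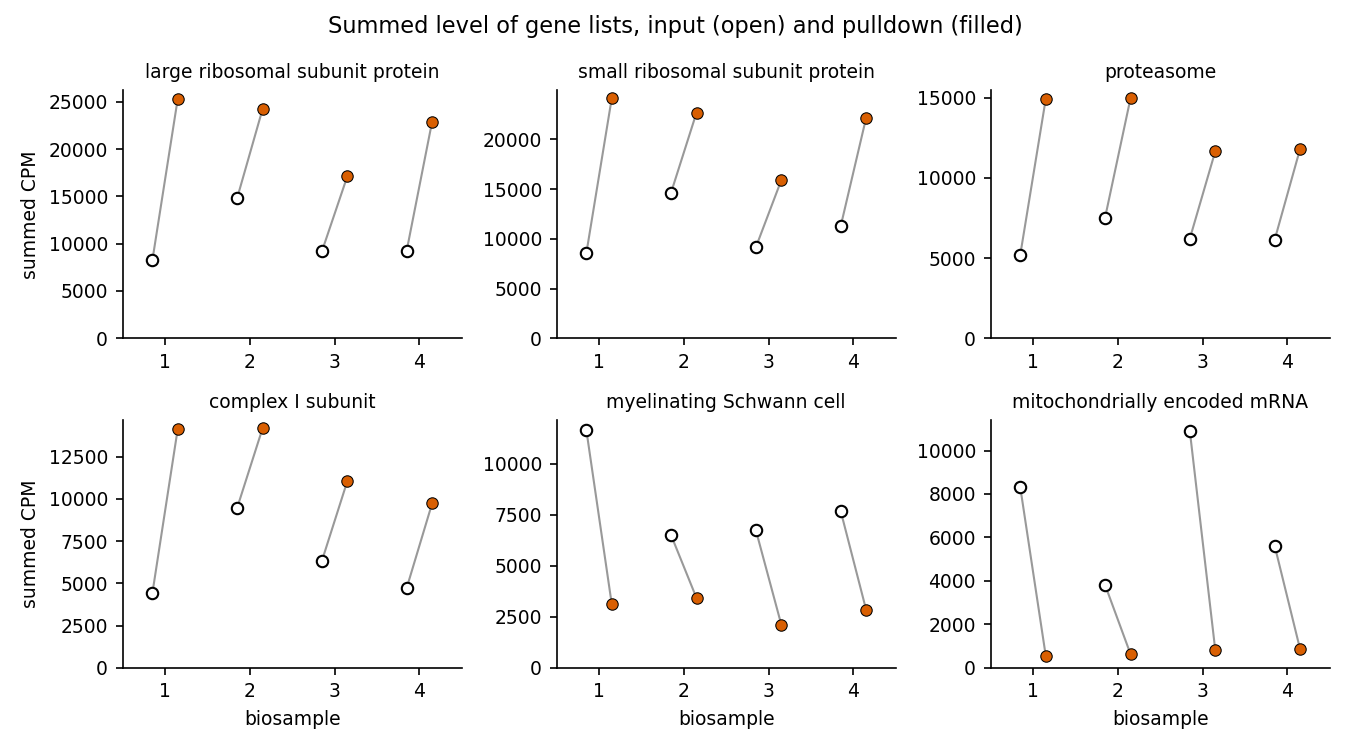
Summed CPM of the tested genes of 6 lists in each library (inputs open, pulldowns filled, lines joining a pair, axes from 0). Large and small ribosomal subunit, proteasome and complex I sums are higher in every pulldown than in its input, and Schwann cell and mitochondrially encoded sums are lower.

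The remaining housekeeping lists gave mixed calls. Rises and falls were 6 and 7 of 42 for translocation and folding in the endoplasmic reticulum, 4 and 5 of 31 for the V-ATPase and lysosome, 5 and 2 of 22 for aminoacyl-tRNA synthetases, and 3 and 10 of 28 for ubiquitin genes. In this order the shares were 14.3% and 16.7%, 12.9% and 16.1%, 22.7% and 9.09%, and 10.7% and 35.7%. All genes gave 4.98% and 23.6%. Under the 3 other scalings there were 12, 8 and 9 rises and 2, 5 and 1 falls in the first list, 12, 6 and 11 rises and 1, 6 and 1 falls in the second, 6, 5 and 6 rises and 0, 0 and 0 falls in the third, and 4, 2 and 4 rises and 1, 8 and 1 falls in the fourth. Falls outnumbered rises for ubiquitin genes as deposited and with quantile normalization, and the balance turned with the other 2. Calr, the calcium-binding chaperone calreticulin, rose by 1.37, and Stt3a, a catalytic subunit of the oligosaccharyltransferase, fell by 2.04. In the proton pump Atp6v0a1 of the membrane sector rose by 1.36 and Atp6v1a of the catalytic sector fell by 1.33. With no intensity trend Atp6v0a1 and Atp6v1a did not pass.

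The largest rise of all named genes was that of Serpina11, a serpin (chromosome 12, 103980243 to 103989957, minus strand). It was at 7.03, 21.3, 9.19 and 13.6 CPM in the inputs and 267, 154, 76.8 and 101 CPM in the pulldowns, highest in pulldown 1. After Psmb3 followed Timmdc1, a complex I assembly factor, at 2.79, Tmem205 at 2.65, Cysltr2 at 2.58, Pakap at 2.55, and Ptms, the small nuclear protein parathymosin, at 2.45. S100a6, a calcium-binding protein, reached 11498, 11610.0, 8568 and 4469.8 CPM in the pulldowns from 1399.9, 3241, 1961 and 1242 CPM in the inputs. The rises of Gdap1l1, Kif3c, Syt5, a synaptotagmin, and Eif3m were between 2.35 and 2.42.

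Of the falls, Akap2, an anchoring protein of protein kinase A, had the largest (-3.82), from 139.8, 103, 155 and 108 to 1.21, 39.2, 70.6 and 0 CPM. It lies within Pakap on the same strand of chromosome 4, both ending within a few bases of 57896984, and Pakap rose, from 18.6, 4.39, 0 and 48.5 to 49.3, 37.7, 43.1 and 70.3 CPM. How reads of the shared 3′ end were assigned to these 2 models is not stated. Sorbs2, an actin and focal adhesion adaptor, fell by 3.68, Emp1, an epithelial and glial membrane protein, fell by 3.58, and Plat, the tissue plasminogen activator, fell by 3.45. Ucp1, the uncoupling protein of brown fat, went from 24.7, 19.4, 33.9 and 10.1 CPM in the inputs to 0.30, 0.89, 1.91 and 0.17 CPM in the pulldowns. Cnot3, a deadenylase subunit among the 10 highest genes of the inputs, varied widely between biosamples: it stood at 5072, 152, 1423 and 8522 CPM in the inputs and 76.4, 91.3, 98.5 and 2146 CPM in the pulldowns, lower in 4 of 4 pairs with overlap between the fractions. With robust estimation Akap2 (adjusted p = 0.0968) and Cnot3 (0.127) did not pass, and with no intensity trend Akap2, Pakap and Cnot3. Without the biosample block Pakap and Cnot3 did not pass.

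What the genes that moved shared was read from their 3′ ends, the part that was sequenced, and from their input level. Genes that rose had a median GC content of 50.1% in the last 500 bases of the transcript and a median transcript length of 2247.5 bases, and genes that fell 39.6% and 3460 bases. In quintiles of the tested genes by this GC content, from the lowest to the highest, the median change was -1.01, -0.84, -0.63, -0.51 and -0.20. The share of genes that rose went from 1.44% to 10.6%, and the share that fell from 40.6% to 10.2%. The trend was present in each pair and steepest in biosample 1, from -1.48 to 0.05, against -0.59 to -0.06 in biosample 4. With each library's trend on GC content and length removed, a setting chosen after the data were seen, 567 genes were higher and 2759 lower, and 14 small and 15 large ribosomal subunit genes, 16 proteasome genes and 12 complex I genes rose. Falls of these 4 lists under this setting numbered 2, 2, 1 and 7, against 1, 0, 3 and 4 as deposited. Named genes that lost their call with it are given beside their results. Calls also went with the input level. The share that rose was 0.306% in the lowest and 13.05% in the highest quintile of mean input. For falls it was 17.6% and 35.4%. Median input was 91.2 CPM for genes that rose, 42.2 CPM for genes that fell and 18.0 CPM for the rest.

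**Figure D5:**
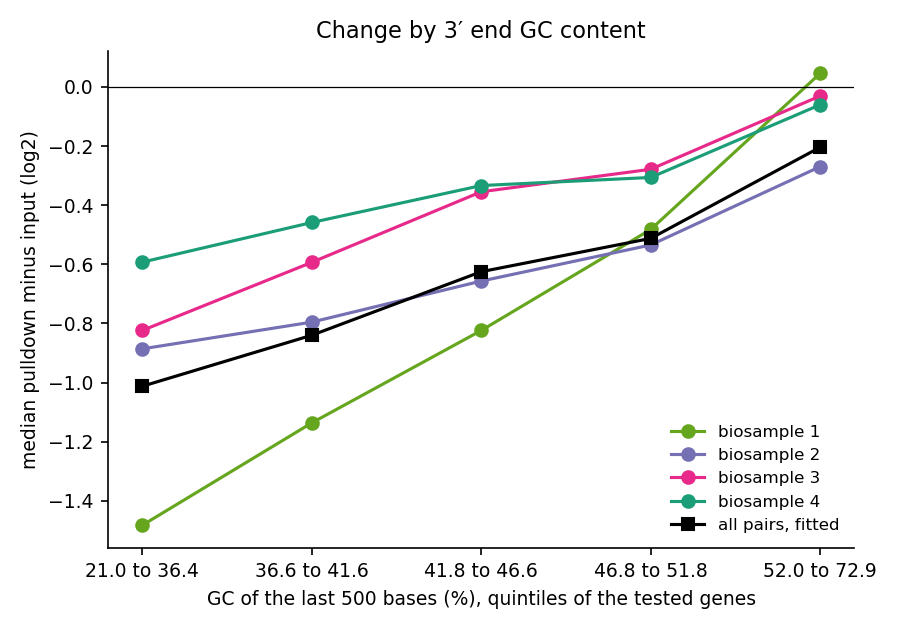
Median pulldown minus input change (log2, vertical axis) in quintiles of the tested genes by GC content of the last 500 bases (horizontal axis), 1 line per biosample and the median of the fitted changes in black. All 4 lines rise from the lowest to the highest quintile.

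The same contrast after paclitaxel was used only to ask whether the normal changes differed from it. Paclitaxel biosample 7 was split into 2 subsamples, which were averaged, so that 16 libraries entered a limma fit with an interaction term. Of the 13063 genes 27 differed (0.207%). The count was 0 without the biosample block (1036 genes at an unadjusted p under 0.05) and 0 without biosample 7 (1226 genes), 4 without biosample 5 or 6, 7 without biosample 2, 43 without 1, 51 without 4 and 109 without 3. Calca had a change of -0.94 in normal ganglia and of 0.79 after paclitaxel (difference 1.72, SE 0.256, adjusted p = 0.00534). This difference passed with each biosample left out except 7 (adjusted p = 0.0818). Nefm and Plec, a linker of intermediate filaments, rose in normal ganglia by 0.99 and 1.36 and stood at -0.22 and 0.08 after paclitaxel. Ndufa4 went the other way, from -1.69 to 0.12. The differences of Nefm, Plec and Ndufa4 each lost their call when any one of biosamples 2, 5, 6, 7 or 8 was left out, Nefm also without 4 and Plec also without 1. Scn10a had a change of 1.30 after paclitaxel, and the difference did not pass (adjusted p = 0.293).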

How the data were processed

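RNA of dorsal root ganglia was sequenced from the 3′ end in 4 input and 4 pulldown libraries. The deposited table names its values TPM in the header, but each library's values sum to 1000000 within rounding and are whole multiples of what 1 read is worth, so they were read as CPM (counts per 1000000 counted reads) made by the authors. The planned tests for such scaled values were kept. FastQC 0.11.5, TopHat2 2.1.1, Bowtie2 2.2.9, Cufflinks 2.2.1 and GRCm38.p4 are named in the submitters' processing notes, and GENCODE vM10 per the file headers; which tool made which value, the use of strand or of molecular identifiers, and the handling of shared reads are not given in the sources used here. Whole reads were recovered for 98.1% to 98.7% of the values above 0 (within 0.0051 CPM). The floor, 3 reads, comes to 0.112 to 0.703 CPM and covers counting error only.

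Genes at 1 CPM or more in at least 4 of 8 libraries (13063 of 22021; 4739 were at 0 in all 8) were tested in R 4.3.3 with limma 3.58.1 on log2(CPM + 1), with an intensity trend and the biosample as a block, and Benjamini-Hochberg adjustment at 0.05. A fold change on this scale understates that of low genes. The numbers pair the libraries because input and pulldown were taken from 1 extract. The deviations of same-numbered libraries from their group means correlated at 0.052, 0.156, 0.228 and 0.391. Those of libraries with unlike numbers correlated at -0.3355 to 0.1472. Input 1 was closer to pulldown 4 (0.1285) than to its own pulldown, so the pairing of biosample 1 is not borne out by these values. The block takes out the level of each biosample, which leaves the spread of the 4 pulldown minus input changes. That spread is moderated towards the spread of genes of similar level. The moderation was strong, so limma's p-values here rest mostly on the spread of such genes and little on a gene's own 4 changes. With no intensity trend 1416 genes passed, against 3739. Since the animals behind a biosample are not stated, the p-values speak only for these biosamples. In simulated data for this comparison (13063 genes) limma recovered 12 of 100 genes changed by 1 on the log2 scale and 75 of 100 changed by 2. It called 6 of 12863 unchanged genes. With edgeR 4.0.16 these numbers were 12, 73 and 5. Only those genes were changed, equally often up and down, whereas 28.6% of genes passed in the data, with a median change of -0.66. Counting noise was also added to a spread that already held it. The recovery and false calls in the data can therefore differ from these.

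The genes and lists were chosen with earlier results of these data known. Named were genes from the 15 largest rises and 15 largest falls whose mean in the higher fraction was 5 CPM or more, with no overlap and the same direction in every pair, leaving out predicted genes, pseudogenes and histones. To these came, from each list, up to 4 rises and 4 falls with the lowest p and up to 4 members that did not pass with the highest mean, a set of genes chosen whatever their result (Scn10a, Rpl10a, Calca, Trpv1, Prph, Fabp7, Rraga, Mtor, Eif4e and Eif4ebp1), the 10 genes with the highest mean in each fraction, and genes that overlap one of these. Some genes that this rule names are not reported here. Mrgprd and the ribosomal protein genes shown by sequence were named after their values were seen. Named genes that overlap another listed gene, so that their reads may be mixed, are Akt1s1, Psma2, Nefm, Plec, Rps14, Plcb3, Avil, Nmb, Cct8, Eef1b2, Egfl7, Eif3m, Map1a, Mtor, Kcnip4, Cct7, Rab3a, Cryab, Cnot3, Tmem205, Scn2b, mt-Nd4, Akap2 and Pakap. The deposited file lists 39 symbols more than once. Coordinates, GC content and lengths are from GENCODE vM21 on GRCm38, and start windows from RefSeq on GRCm38.p6. Alternatives were other pseudocounts, filters, scalings, variance settings and designs, edgeR's quasi-likelihood test on the recovered reads, and leaving out each biosample. Added after seeing the data were biosamples 3 and 4 alone, a filter of 3 reads in all 8 libraries, and removal of the trend with GC content and length. A further 2 columns that pool samples were not used.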

Additional observations from a re-analysis of the deposited data

Results flagged for a closer look

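In 256 sets of 4 values, which are the inputs and the pulldowns of 118 named genes and of 10 summed lists, 1 value stood far from the other 3 in 16 sets, and chance flags about 1 in 20. In the pulldowns biosample 4 was high for Cnot3 (2146 CPM), Elavl4 (646 CPM), Gabrg1 (23.9 CPM), Scn9a (1810 CPM) and Sorcs1 (12.9 CPM) and low for Mrgprd (12.9 CPM). Among the inputs, biosample 4 was high for Prph (2798 CPM) and Rpl14 (234 CPM). Biosample 2 was high in the inputs for Nmb (997 CPM), Eif3d (208 CPM) and the sum of the large ribosomal subunit genes (14812 CPM), and high in the pulldowns for Cryab (156 CPM) and the sum of the skeletal muscle genes (2115 CPM). Biosample 3 was high for Cplx1 in the inputs (114 CPM) and for Penk (2.22 CPM) and Rps2 (21.2 CPM) in the pulldowns. Biosample 1 stood apart in none of these sets. Cryab is expressed by muscle and glia, and pulldown 2, in which it was high, also held the highest sum of skeletal muscle genes; the part of muscle RNA in this value was not tested.

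The pulldown minus input change differed between paclitaxel and normal ganglia by limma's interaction test for 4 of the named genes. The difference, paclitaxel minus normal, was 1.72 for Calca, 1.81 for Ndufa4, -1.21 for Nefm and -1.28 for Plec on the log2 scale.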

How the results depend on the processing

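No intensity trend in limma gave 1416 calls, 171 of them higher and 1245 lower, against 3739, 650 and 3089. The calls numbered 2420 with quantile normalization (1187 higher, 1233 lower), 1707 with edgeR (1116 and 591) and 2221 with biosamples 3 and 4 alone (487 and 1734), and median-ratio scaling gave 1412 higher and 1219 lower. Leaving out 1 biosample gave 2496 to 3380 calls, 454 to 586 higher and 2021 to 2806 lower, with the fewest lower calls without biosample 1. Without the replicate block, that is without pairing by biosample, 2258 genes passed, 394 higher and 1864 lower, and 15 of the 104 named genes that passed lost their call. The total under every other setting lay within 1.5 times, from 2631 with median-ratio scaling to 5042 at a threshold of 0.1. In every setting run 53 of the 104 named genes that passed kept their call and 51 lost it in at least 1, most of them with no intensity trend (43) or with biosamples 3 and 4 alone (21); none of the 104 changed sign. The 27 differences between treatments became 13 and 56 with pseudocounts of 0.1 and 5, 7 with subsample 1 of biosample 7 alone, 0 without the replicate block and 0 to 109 with 1 biosample left out. The cause of these changes was not tested.

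Among named genes that did not pass, the sign turned for Rpl10a with quantile normalization (0.54), edgeR (0.10) and biosamples 3 and 4 alone (0.56). With median-ratio scaling it turned for Eif4e (0.16), Kif5b (0.064) and Nefh (0.37), with edgeR for Eif4e (0.13), Kif5b (0.031) and Nefh (0.34), and with quantile normalization for Eif4ebp1 (0.57) and Tac1 (-0.091). Biosamples 3 and 4 alone turned it for Nefh (0.050), Pi16 (-0.30), Rps2 (0.0069) and Tac1 (-0.33), and the removal of the GC and length trend for Kif5b (0.10), Mrgprd (-0.12) and Pi16 (-0.025). With 1 biosample left out the change of Rpl10a ranged from -1.05 to 0.46, of Mrgprd from -0.23 to 0.36, of Pi16 from -0.10 to 0.36, of Ret from -0.039 to 0.22 and of Tac1 from -0.23 to 0.28. Depth limits the low end: input 4 and pulldown 4 were the shallowest, with floors of 0.703 and 0.502 CPM.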
